A study of Homo sapiens with 20 samples.

Results

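The genes described here were 5 antiviral members of the poly(ADP-ribose) polymerase family, PARP9, PARP10, PARP12, PARP14 and ZC3HAV1, together with DTX3L, the partner of PARP9. They were chosen by name, 6 of 58233 genes counted in each library, with the level of PARP10 in IFN-β-treated A549 cells already known, so the comparisons that include the ADAR-knockout, IFN-β-treated A549 libraries are given below as values with no test. RNA was sequenced from 4 human lung cancer cell lines after CRISPR-Cas9 cutting of ADAR, the gene of the double-stranded RNA editing enzyme ADAR1, or of GFP as a control. Each of the 10 conditions had 2 libraries, 20 in all, and the members of such a pair differed in the guide RNA (sg1 or sg2). A549, a lung adenocarcinoma line that tolerates ADAR loss, was collected after 24 h in 10 ng/mL interferon-β (IFN-β) or in vehicle (sterile water), giving GFP vehicle, GFP IFN-β, ADAR vehicle and ADAR IFN-β groups. The other 3 lines depend on ADAR1 for survival and were untreated: HCC366, labelled adenosquamous carcinoma, NCI-H1650, labelled adenocarcinoma, and NCI-H196, labelled variant small cell lung cancer. Their RNA was taken 5 days after transduction with a lentivirus carrying both Cas9 and the guide. All groups, controls included, therefore carried Cas9 and a guide, and each library came from a transduced population rather than from a clone. Nothing in the labels names separate cultures beyond the guides, so the p-values measure only the spread between libraries made with different guides, which may be technical.

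Proteins of this family attach ADP-ribose to other molecules. PARP10, PARP12 and PARP14 transfer single ADP-ribose units, PARP9 works in a complex with the ubiquitin ligase DTX3L, and ZC3HAV1 encodes ZAP, which has lost the transferase activity and instead binds CpG-rich viral RNA and directs it to decay. Most of these genes are interferon-stimulated: type I interferon activates the transcription factor complex ISGF3, which binds the interferon-stimulated response element (ISRE) in the promoters of such genes.

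The 6 genes lie in 3 places of the genome (GRCh37, GENCODE annotation). On chromosome 3, PARP9 (ENSG00000138496, chr3:122246771-122283424, minus strand) and DTX3L (ENSG00000163840, chr3:122283185-122294050, plus strand) run in opposite directions and overlap by 240 bp, and PARP14 (ENSG00000173193, chr3:122399686-122449687, plus strand) starts 105635 bp past the end of DTX3L. On chromosome 7, ZC3HAV1 (ENSG00000105939, chr7:138728261-138816868) and PARP12 (ENSG00000059378, chr7:139723549-139762751) both lie on the minus strand, 906680 bp apart. PARP10 (ENSG00000178685, minus strand) lies elsewhere and overlaps GRINA by 3360 bp on the other strand. The strand setting of the counting is not given in the sources used here, so reads from the shared bases of these pairs could have been assigned to either gene or dropped.

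Promoter windows were available for 5 of the 6 genes in RefSeq (GRCh38.p14), which covered the 250 bases before to 20 bases after a start site. They are shown for DTX3L, whose start lies beside that of PARP9, and for PARP14, PARP12 and ZC3HAV1, since the IFN-β responses below turn on these genes. Capitals mark the ISRE core, GAAA followed by any 2 bases and GAAA again, searched on both strands, and the line without capitals holds none.
DTX3L (chr3:122564088-122564357, plus strand): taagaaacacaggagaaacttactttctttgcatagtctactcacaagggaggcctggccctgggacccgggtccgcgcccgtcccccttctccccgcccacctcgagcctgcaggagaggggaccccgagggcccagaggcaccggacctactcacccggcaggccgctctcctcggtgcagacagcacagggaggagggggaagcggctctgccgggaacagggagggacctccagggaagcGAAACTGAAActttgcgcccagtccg
PARP14 (chr3:122680589-122680858, plus strand): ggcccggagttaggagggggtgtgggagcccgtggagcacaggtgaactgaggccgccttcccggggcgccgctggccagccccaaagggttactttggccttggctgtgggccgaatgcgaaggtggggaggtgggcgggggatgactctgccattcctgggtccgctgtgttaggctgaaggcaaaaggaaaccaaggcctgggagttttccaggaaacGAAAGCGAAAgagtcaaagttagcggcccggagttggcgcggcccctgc
PARP12 (chr7:140062932-140063201, minus strand): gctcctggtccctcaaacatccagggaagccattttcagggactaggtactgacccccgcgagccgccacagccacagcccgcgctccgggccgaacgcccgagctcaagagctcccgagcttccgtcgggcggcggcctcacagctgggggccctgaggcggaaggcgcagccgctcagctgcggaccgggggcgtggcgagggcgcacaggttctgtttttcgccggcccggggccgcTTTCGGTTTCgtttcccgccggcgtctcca
ZC3HAV1 (chr7:139109701-139109970, minus strand): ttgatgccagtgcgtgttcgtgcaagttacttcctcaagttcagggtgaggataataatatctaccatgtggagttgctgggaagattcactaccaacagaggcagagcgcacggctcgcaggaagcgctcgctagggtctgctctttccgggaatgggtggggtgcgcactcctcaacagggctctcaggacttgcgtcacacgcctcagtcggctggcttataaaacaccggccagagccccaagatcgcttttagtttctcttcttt
The ISRE core lay at positions -6 to 4 from the start site in DTX3L, -29 to -20 in PARP14 and -10 to -1 in PARP12. One of the PARP9 windows overlaps that of DTX3L, and its core, at -41 to -32 on the opposite strand, is made of the very same bases. The ZC3HAV1 window and the other PARP9 window did not hold these letters. Of 35116 RefSeq windows of this length, 3.3% held the core. The shorter core TTCNNNGAA, known as GAS, which reads the same on both strands, was found in PARP14 at -40 to -32, just before and not overlapping its ISRE core, and in ZC3HAV1 at -104 to -96, against 7.05% of all windows.

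Gene-assigned reads ranged from 62679 in NCI-H196 GFP sg2 to 19520189 in A549 ADAR IFN-β sg2, with a median of 6411279. The shallowest library held 10 reads of PARP9 and 9 of PARP10, and HCC366 ADAR sg2 stood apart in that 85.6% of its alignments were not unique, against 22.5% to 59.1% elsewhere. ADAR was lower with ADAR guides than with GFP guides in every pair of groups, its mean being between 40.8% of the control in NCI-H1650 and 68.5% in NCI-H196, and the counts cannot tell cut from intact ADAR transcripts. The keratins KRT8 and KRT18 were at 987 to 2624 CPM in A549, HCC366 and NCI-H1650 and at 23.7 to 33.7 CPM in NCI-H196. The epithelial markers KRT19, EPCAM and CDH1 were at 105 to 774 CPM in NCI-H1650, but at 0.383 to 38.3 CPM in A549, 0 to 9.47 CPM in HCC366 and at most 0.105 CPM in NCI-H196. The neuroendocrine regulators NEUROD1 and INSM1 were at 0 in both NCI-H196 control libraries and the vesicle proteins CHGA and SYP at 0.629 and 0.682 CPM. The squamous markers TP63 and KRT5 were at 1.44 and 0.399 CPM in HCC366, below the 31.0 CPM of TP63 in NCI-H196. The neuroendocrine genes were thus absent or low in NCI-H196, and the squamous ones in HCC366. Whether these levels depart from what the labels imply was not tested. The NCI-H196 values include GFP sg2, the library of 62679 reads, where a count of 0 carries little information. Of the leukocyte genes, CD3E was at 0 in the control libraries of all 4 lines, PTPRC at 0 in A549 and HCC366 and at 0.541 and 0.629 CPM in NCI-H1650 and NCI-H196, and CD14 between 0.893 CPM in A549 and 5.49 CPM in HCC366.

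The first comparison asked how the control cells of the 3 ADAR1-dependent lines differed from control A549. All 6 genes were higher in the dependent lines, with log2 differences of the mean of the 3 lines from A549 between 1.18 for ZC3HAV1 and 6.46 for PARP10. PARP9, DTX3L and PARP10 belong to an interferon signature that the study picked on other expression data of these lines, so their direction here is not independent evidence. Since RNA was taken from whole cultures, fewer cells expressing a gene and less RNA per cell cannot be told apart. Values are CPM, the reads of a gene relative to the gene-assigned reads of its library, here scaled with TMM, which sets most genes equal on average, over the 8 libraries with GFP guides.

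PARP10, a mono-ADP-ribosyltransferase that limits alphavirus replication, was close to silent in A549, with 0.507 and 1.21 CPM in its libraries (3 and 14 reads). It stood at 68.6 and 102 CPM in HCC366, 116 and 158 CPM in NCI-H1650, and 53.2 and 106 CPM in NCI-H196. Every library of the dependent lines was thus far above both A549 libraries. The log2 difference was 6.46 ± 0.23 (SE; edgeR quasi-likelihood test, adjusted p = 2.03e-77).

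PARP9, which reads ADP-ribose through its macrodomains, was at 10.5 and 9.80 CPM in A549. In the dependent lines its lowest library was HCC366 GFP sg1 with 55.1 CPM and its highest HCC366 GFP sg2 with 136 CPM. DTX3L, the ubiquitin ligase that shares its promoter region, was at 30.6 and 33.9 CPM in A549 and between 115 and 256 CPM in the dependent lines. The log2 differences were 2.99 ± 0.16 for PARP9 and 2.48 ± 0.13 for DTX3L. PARP14, a mono-ADP-ribosyltransferase with several macrodomains, was at 60.5 and 68.0 CPM in A549 and between 246 and 744 CPM in the dependent lines, a log2 difference of 2.43 ± 0.14. PARP12, a zinc finger protein that blocks translation of viral RNA, was at 24.3 and 27.8 CPM in A549 and between 63.8 and 153.6 CPM elsewhere, a log2 difference of 2.19 ± 0.13. For these 4 genes, as for PARP10, every library of the dependent lines was above both A549 libraries, which held for 10.6% of all genes.

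ZC3HAV1 did not share this gap. It was at 176 and 179 CPM in A549, 389 and 486 CPM in HCC366, 794 and 595 CPM in NCI-H1650, and 220 and 165 CPM in NCI-H196. The NCI-H196 libraries overlapped those of A549, and the difference between these lines was 0.27 ± 0.16 (edgeR, adjusted p = 0.118). This overlap rested on NCI-H196 GFP sg2, at 165 CPM on 14 reads. GFP sg1, at 220 CPM on 2096 reads, was above both A549 libraries. Over the 3 lines the mean was nevertheless higher by 1.18 ± 0.12 (edgeR, adjusted p = 2.60e-18). All 6 genes passed the test in the higher direction, where 32.6% of 15964 genes did, and the median log2 difference was 2.46 against 0.0061 over all genes. The A549 controls had received vehicle and the other lines were untreated, which cannot be told apart from the line, and the time after transduction of A549 is not given in the sources used here.

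Among the dependent lines the order of the levels changed from gene to gene. PARP10 was highest in NCI-H1650, by 0.61 ± 0.14 over HCC366 (edgeR, adjusted p = 0.000107) and by 1.32 ± 0.16 over NCI-H196 (edgeR, adjusted p = 2.74e-13), with no overlap of libraries in either case. ZC3HAV1 was likewise highest in NCI-H1650, 0.65 ± 0.14 over HCC366 (edgeR, adjusted p = 1.31e-05), and NCI-H196 was in turn below HCC366, by -1.04 ± 0.17 (edgeR, adjusted p = 7.16e-09), so that the ordering was NCI-H1650, HCC366, then NCI-H196 with A549. PARP12 was 0.41 ± 0.14 higher in NCI-H1650 than in HCC366 (edgeR, adjusted p = 0.00841). PARP14, PARP9 and DTX3L ran the other way, lower in NCI-H1650 than in HCC366, although the libraries of these lines overlapped for each gene. PARP14 differed by -0.54 ± 0.14 (edgeR, adjusted p = 0.000637) and PARP9 by -0.51 ± 0.15 (edgeR, adjusted p = 0.00278). DTX3L differed by -0.31 ± 0.14 (edgeR, adjusted p = 0.0453). DTX3L and PARP14 did not differ past the threshold between HCC366 and NCI-H196 (adjusted p = 0.852 for each, edgeR).

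Levels of different genes can be set side by side only per length. Per kilobase of annotated exon, ZC3HAV1 had the highest level in A549 (21.0 ± 0.262 CPM per kb, SD, n = 2), HCC366 (51.7 ± 8.08) and NCI-H1650 (82.0 ± 16.7). In NCI-H196 PARP14 had the highest mean (52.1 ± 28.7), followed by DTX3L (37.6 ± 7.55). That lead rested on the shallow GFP sg2 library, with PARP14 at 744 CPM on 63 reads, against 327 CPM in GFP sg1. PARP10 was the lowest of the 6 in A549, at 0.143 ± 0.0830 CPM per kb. The order depended in part on the length used. Per kilobase of the canonical transcript, PARP12 (42.6 CPM per kb) was above DTX3L (37.6) in NCI-H196.

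**Figure D1:**
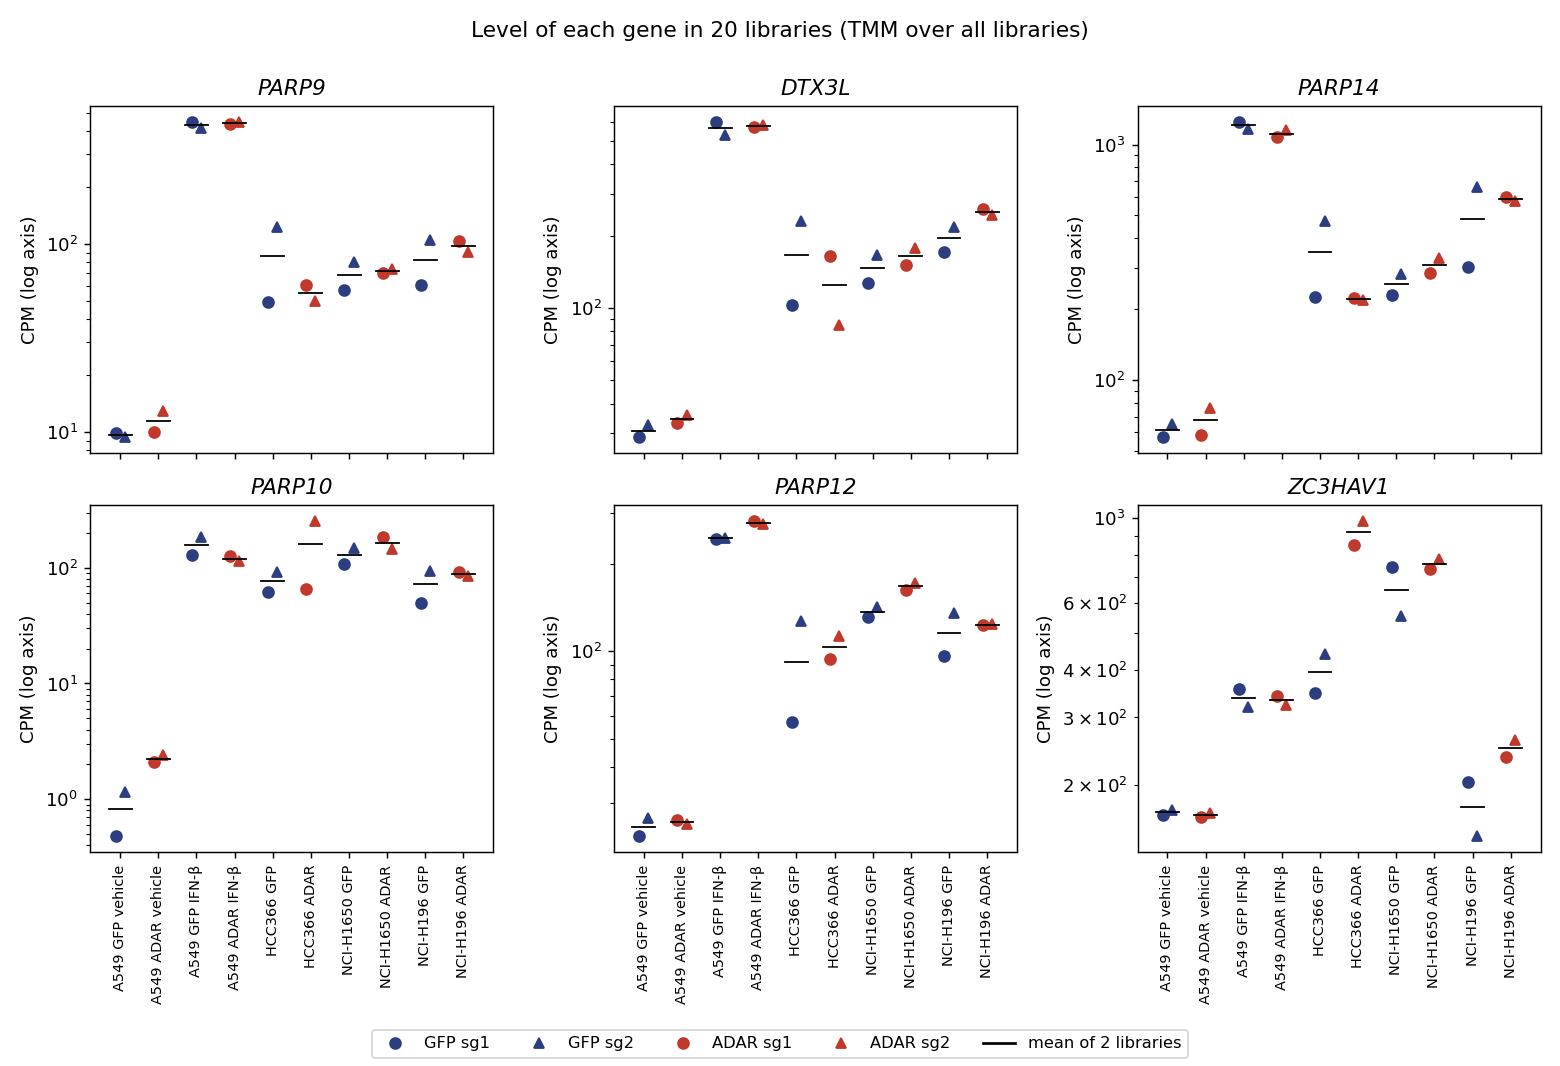
Level of each of the 6 genes in the 20 libraries, in CPM scaled over all libraries on a log axis. Circles are sg1, triangles sg2, blue GFP guides, red ADAR guides and black lines the mean of 2 libraries. The A549 vehicle libraries are the lowest for every gene but ZC3HAV1, and the IFN-β-treated A549 libraries are the highest for PARP9, DTX3L, PARP14 and PARP12.

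The next comparison was the response of control A549 cells to IFN-β. All 6 genes rose, and all 6 had IFN-β libraries above both vehicle libraries. In this and the following A549 comparisons CPM were scaled over the 8 A549 libraries.

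PARP10 rose from 0.396 and 0.930 CPM to 106 and 153 CPM, the largest log2 change of the 6 at 7.42 ± 0.24 (SE). Because it rested on 17 reads with vehicle, the ratio was also taken from the reads themselves, and it was 179-fold with a 95% exact counting interval of 111.5 to 307. That interval covers counting error only. The control IFN-β libraries also entered the PARP10 difference known beforehand, so no p-value is given and its call is not independent evidence. PARP9 followed, from 8.18 and 7.50 CPM to 367 and 340 CPM (5.51 ± 0.14; edgeR, adjusted p = 2.56e-24).

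DTX3L went from 23.9 and 26.0 CPM to 497 and 437 CPM, a log2 change of 4.22 ± 0.12 (edgeR, adjusted p = 4.16e-23). PARP14 went from 47.2 and 52.1 CPM to 1032 and 957 CPM, a log2 change of 4.32 ± 0.12 (edgeR, adjusted p = 6.39e-23). PARP12 went from 19.002 and 21.2 CPM to 202 and 203 CPM, a log2 change of 3.32 ± 0.12 (edgeR, adjusted p = 2.26e-20). ZC3HAV1 moved least, from 138 and 137 CPM to 295 and 263 CPM, a log2 change of 1.02 ± 0.10 (edgeR, adjusted p = 2.80e-09). PARP10 aside, each of the other genes passed in the higher direction, where 4.39% of 15449 genes did. Both IFN-β libraries were above both controls for 21.7% of all genes. The median log2 change over the 6 genes, PARP10 included, was 4.27, against 3.16e-05 over all genes.

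The unequal rises changed the make-up of the group. As CPM without scaling, the 6 genes together took 242 to 262 in the 4 vehicle libraries and 2298 to 2440 in the 4 IFN-β libraries. ZC3HAV1 held 52.4% to 58.2% of these reads with vehicle and 11.2% to 12.1% with IFN-β, while the share of PARP14 went from between 19.9% and 23.8% to between 38.0% and 41.3% and that of PARP9 from between 3.06% and 4.04% to between 14.4% and 15.4%. In HCC366 ZC3HAV1 held 29.6% to 41.3% in the control libraries and 57.7% to 58.3% in the knockout ones. In NCI-H1650 these ranges were 40.2% to 53.2% in controls and 46.2% to 46.5% in the knockout. In NCI-H196 they were 10.8% to 23.0% in controls and 16.7% to 18.9% in the knockout. The 10.8% came from the shallow GFP sg2 library, with 14 reads of ZC3HAV1.

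**Figure D2:**
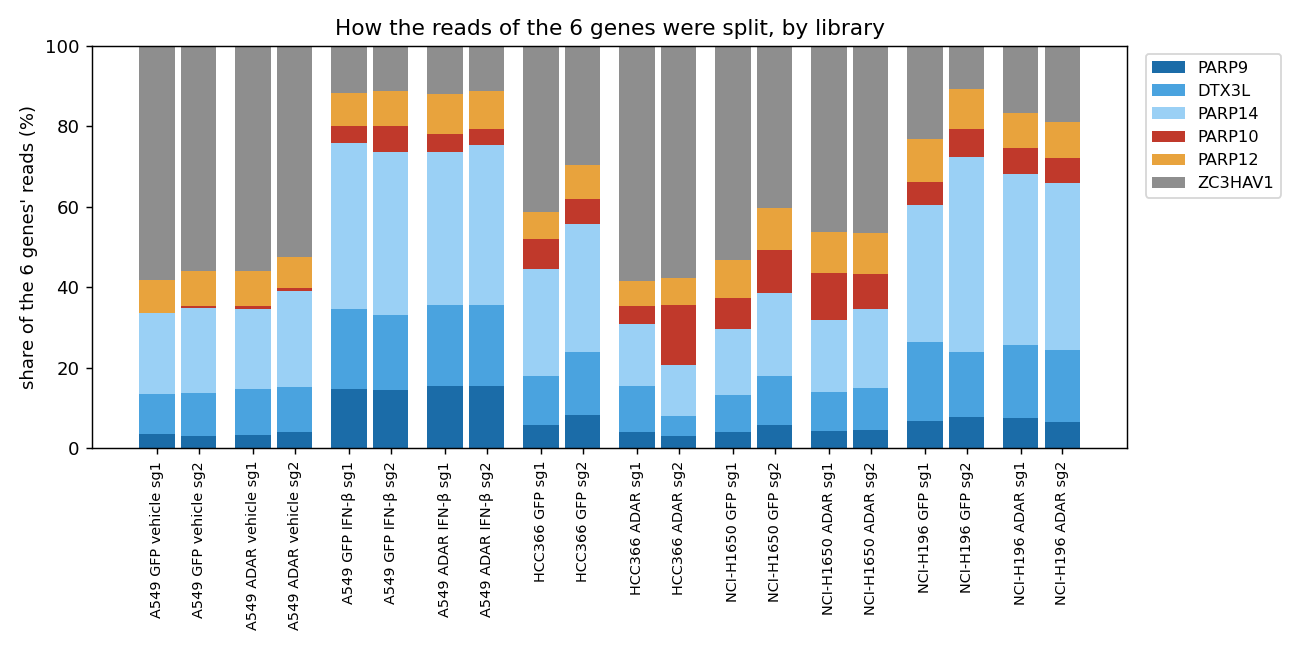
Share of the reads of the 6 genes, in percent, taken by each gene in each of the 20 libraries (stacked bars summing to 100%). ZC3HAV1 (grey) holds at least 52.4% in the A549 vehicle libraries and at most 12.1% in the IFN-β-treated ones.

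On a scale over all 20 libraries, IFN-β-treated control A549 cells were above all 6 control libraries of the dependent lines for 4 genes. PARP9 was at 414 and 444 CPM against a highest value of 123 CPM in the dependent lines, and PARP14 at 1165 and 1247 CPM against 659 CPM. For DTX3L the values were 532 and 601 CPM against 231 CPM, and for PARP12 they were 244 and 247 CPM against 143 CPM. PARP10 overlapped, at 128 and 186 CPM against 49.2 to 147 CPM. ZC3HAV1 was within the range of the dependent lines, at 320 and 356 CPM against 146 to 744 CPM. These groups differ in line and treatment, and the difference was not tested.

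Other genes of the pathway were taken from fixed lists. Of the 11 other PARP family genes tested, 3 rose with IFN-β and 8 did not pass: PARP4 by 0.81 ± 0.10, PARP3 by 1.33 ± 0.20 and PARP8 by 1.39 ± 0.42. Of 6 partners of ZAP, 2 rose, TRIM25, a ubiquitin ligase that ZAP needs for its activity, by 2.13 ± 0.10, and N4BP1, an endoribonuclease, by 0.98 ± 0.13. Of the subunits of ISGF3, STAT2 rose by 3.51 ± 0.11 and IRF9 by 2.98 ± 0.45. Of 6 genes that remove ADP-ribose only ADPRS, a hydrolase of serine ADP-ribosylation, rose, by 0.80 ± 0.16, and of 3 Deltex family genes tested, 0 passed in edgeR and 0 had an unadjusted p under 0.05.

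ADAR knockout without interferon was compared in A549 with vehicle. None of the 6 genes passed the test (edgeR and DESeq2, 0 of 6 each, where 0.123% of genes passed in edgeR), and 1 had an unadjusted p under 0.05, against 4.16% of all genes. That gene was PARP10, at 1.71 and 1.93 CPM (14 and 19 reads) in the knockout against 0.396 and 0.930 CPM in the control, a log2 difference of 1.28 ± 0.46 (edgeR, unadjusted p = 0.00970, adjusted p = 0.994). In reads, 33 against 17, the ratio was 2.44 with a 95% exact counting interval of 1.32 to 4.67. DTX3L was also higher in both knockout libraries, at 27.3 and 28.8 CPM against 23.9 and 26.0 CPM, while ZC3HAV1 was lower in both, at 135 and 136 CPM against 138 and 137 CPM. Both libraries were higher for 18.8% and lower for 17.8% of all genes. PARP9 (8.17 and 10.5 CPM), PARP14 (48.0 and 61.7 CPM) and PARP12 (21.5 and 20.5 CPM) overlapped with their controls.

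With IFN-β, knockout and control A549 cells differed by at most 0.22 on the log2 scale in 5 of the genes. PARP9 was at 372 and 377 CPM in the knockout against 367 and 340 CPM, a log2 difference of 0.08 ± 0.10 (SE). PARP12 was at 240 and 232 CPM against 202 and 203 CPM, a difference of 0.22 ± 0.10, and these were the 2 genes whose knockout libraries were both higher, which held for 28.2% of all genes. DTX3L (490 and 494 CPM), PARP14 (920 and 972 CPM) and ZC3HAV1 (292 and 273 CPM) differed from their controls by 0.08 ± 0.10, -0.07 ± 0.10 and 0.02 ± 0.10. The median over the 6 genes was 0.05.

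PARP10, whose lower level here was known when the genes were picked, was at 107 and 95.8 CPM in the knockout and at 106 and 153 CPM in the control. The log2 difference was -0.36 ± 0.13, yet one knockout library lay above the control sg1 library, so the groups overlapped and the lower mean came from the control sg2 library. Without that control library the difference was -0.07, and without the other one it was -0.59.

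IFN-β changed the genes in knockout cells by log2 values of 5.78 ± 0.22 for PARP10, 5.32 ± 0.13 for PARP9, 4.13 ± 0.12 for DTX3L, 4.10 ± 0.12 for PARP14, 3.49 ± 0.12 for PARP12 and 1.06 ± 0.10 for ZC3HAV1. These values share libraries with the comparisons above. The order was that of the control cells, save that DTX3L and PARP14 changed places. The interaction, the IFN-β response in knockout cells minus that in control cells, was -1.64 ± 0.48 for PARP10 and between -0.22 and 0.17 for the other genes. The PARP10 value combined a vehicle level that was higher in the knockout, on 33 reads, with a lower level under IFN-β, and the vehicle part was the larger.

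**Figure D3:**
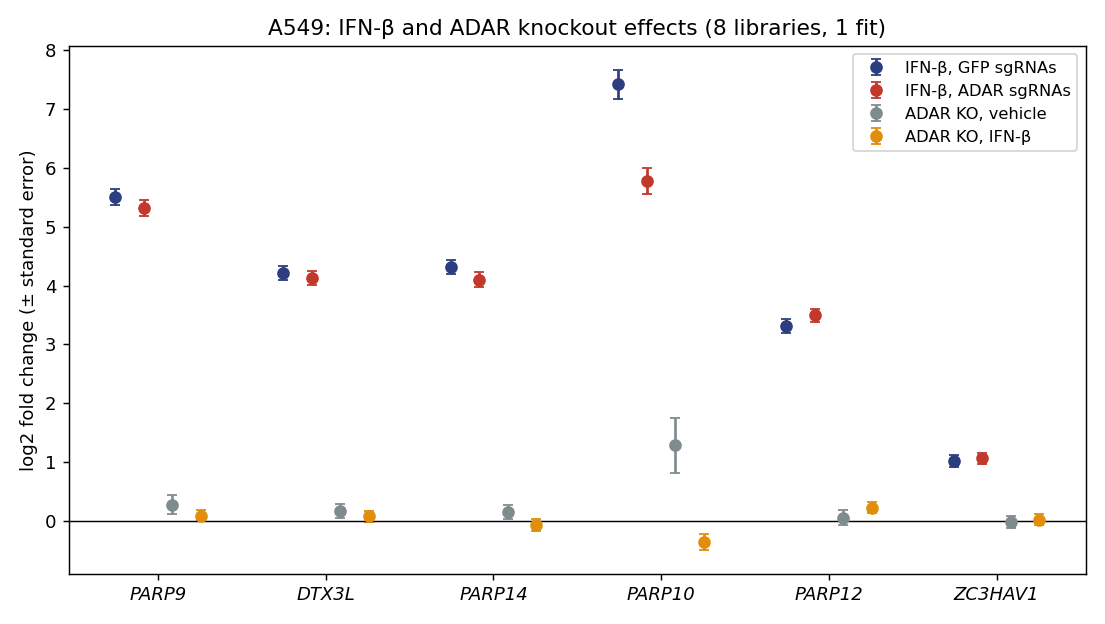
Log2 fold changes of the 6 genes in A549, with standard errors from 1 fit of 8 libraries, for IFN-β in control cells, IFN-β in ADAR-knockout cells, knockout with vehicle and knockout with IFN-β. The IFN-β changes run from 1.02 for ZC3HAV1 to 7.42 for PARP10 in control cells, and the knockout values lie near 0 for all genes but PARP10.

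In the ADAR1-dependent lines the question was whether ADAR knockout alone moved these genes. The answers differed by line, and in HCC366 and NCI-H196 they rested on single libraries. CPM were scaled within each line.

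In HCC366 the gene with the clearest separation was ZC3HAV1, at 913 and 1115 CPM in the knockout against 378 and 470 CPM in the control. The log2 difference was 1.26 ± 0.31 (edgeR, unadjusted p = 0.0026, adjusted p = 0.0931), so it missed the threshold. It passed with DESeq2 (adjusted p = 0.0189) and ranged from an adjusted p of 9.33e-12 without ADAR sg1 to 0.99999 without GFP sg2, the difference staying between 1.07 and 1.42. PARP10 was split between guides, at 70.0 and 288 CPM in the knockout against 66.6 and 99.1 CPM, and without ADAR sg2, the library with few unique alignments, its difference of 1.11 ± 0.58 turned to -0.27. The part of that library's mapping in this was not tested.

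The control libraries of HCC366 were themselves far apart. PARP9 was at 53.5 and 132 CPM in them and at 64.7 and 56.3 CPM in the knockout. DTX3L was at 112 and 248 CPM against 177 and 96.4 CPM in the knockout, and PARP14 at 244 and 505 CPM against 241 and 248 CPM. PARP12, at 62.0 and 136 CPM against 101 and 128 CPM, also overlapped. The sg2 control was thus the highest for PARP9, DTX3L and PARP14, and without it their differences of -0.63, -0.41 and -0.62 became 0.18, 0.29 and 0.00. In edgeR 0 of 6 genes passed, where 1.25% of 11135 genes did, and 1 had an unadjusted p under 0.05 (18.1% of all genes). Without ADAR sg1 the count was 5 of 6, where 52% of all genes passed, and without ADAR sg2 it was 2, where 9.41% did. Both knockout libraries were higher for 1 gene, ZC3HAV1, and for 25.1% of all genes.

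In NCI-H1650, whose libraries were evenly sequenced, all 6 genes had a log2 difference above 0, as did 51% of all genes. PARP10 was at 206 and 161 CPM in the knockout against 121 and 168 CPM, a difference of 0.35 ± 0.12 (edgeR, adjusted p = 0.0516). PARP12 was at 183 and 192 CPM against 147 and 163 CPM, 0.28 ± 0.10 (edgeR, adjusted p = 0.0935), and was the only one of the 6 with both knockout libraries higher (26.2% of all genes). PARP14, at 320 and 367 CPM against 257 and 323 CPM, differed by 0.24 ± 0.11.

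ZC3HAV1 was at 822 and 871 CPM against 832 and 631 CPM, and DTX3L at 171 and 199 CPM against 143 and 191 CPM. PARP9 was at 78.2 and 82.6 CPM against 63.7 and 92.0 CPM, a difference of 0.05 ± 0.13. With edgeR and with DESeq2 0 of 6 passed, where 8.6% of genes passed in edgeR, and 3 of 6 had an unadjusted p under 0.05 (21.7% of all genes). Without GFP sg2, PARP10 alone passed (0.57; edgeR, adjusted p = 0.00221), where 3.77% of all genes passed, and 1 gene also passed without ADAR sg2, where 5.71% did.

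In NCI-H196 all 6 genes passed in edgeR in the higher direction, where 10.3% of genes did, but 0 of 6 passed in DESeq2, where 0.078% of genes rose, and the groups of 5 genes overlapped. PARP14 was at 750 and 654 CPM in the knockout against 348 and 923 CPM in the control, 0.84 ± 0.11 (edgeR, adjusted p = 1.29e-11). PARP10 was at 115 and 96.6 CPM against 56.5 and 132 CPM, 0.80 ± 0.13 (edgeR, adjusted p = 2.31e-08). In both, the higher control value came from the sg2 library of 62679 reads, where PARP14 had 63 reads and PARP10 had 9.

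PARP9 was at 131 and 103 CPM against 69.1 and 147 CPM, and DTX3L at 325 and 279 CPM against 198 and 308 CPM. PARP12 was at 154 and 141 CPM against 111 and 191 CPM. ZC3HAV1 was the only gene whose libraries did not overlap, at 296 and 296 CPM against 234 and 205 CPM, a log2 difference of 0.35 ± 0.10 (edgeR, adjusted p = 0.00810), and both knockout libraries were higher for 25.6% of all genes. The calls rested on the deeper control library: without GFP sg1 the differences of the other 5 genes lay between -0.42 and -0.06 and 0 of 6 passed, and 0 of 6 passed without ADAR sg1 or without ADAR sg2, whereas all 6 passed without the shallow GFP sg2. The share of all genes higher past the threshold was 0.294% without GFP sg1, 2.15% without ADAR sg1, 0.79% without ADAR sg2 and 9.4% without GFP sg2.

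**Figure D4:**
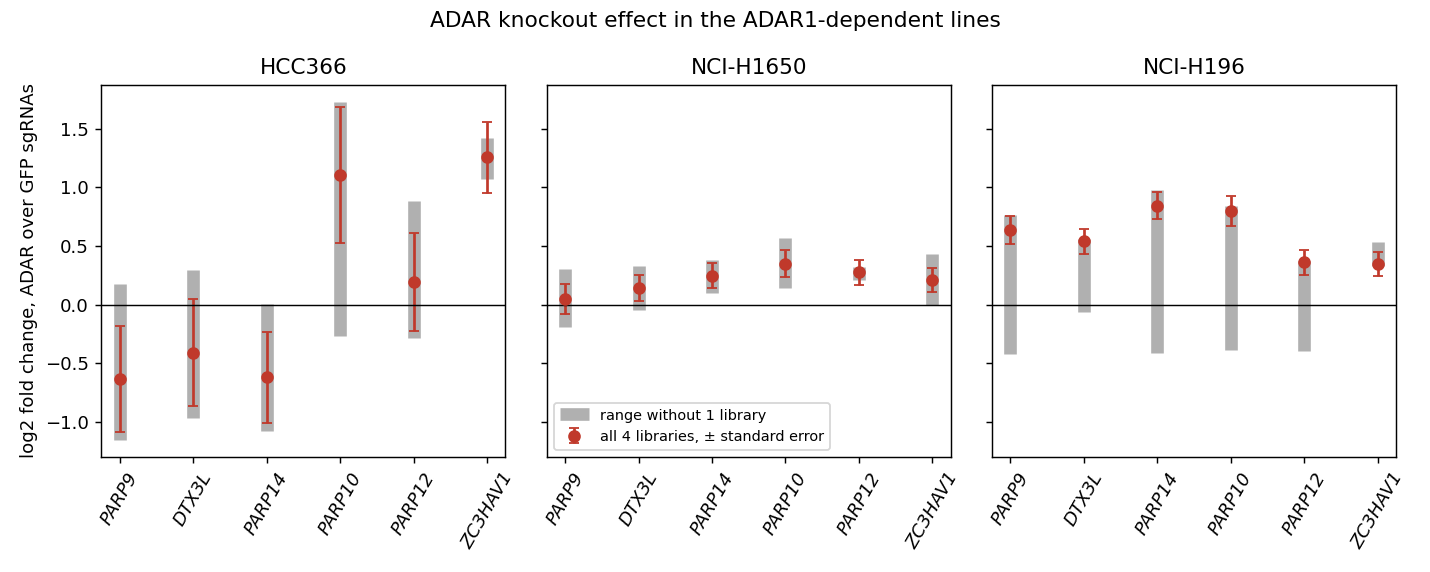
Log2 difference of ADAR over GFP guides for the 6 genes in each ADAR1-dependent line. Red points are the fits of 4 libraries with standard errors, and grey bars span the values with 1 library left out in turn. The grey bars cross 0 for 5 genes in HCC366, 5 in NCI-H196 and 3 in NCI-H1650, and ZC3HAV1 stays above 0 in HCC366 and NCI-H196.

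Fitted together with a term for the line, the 3 dependent lines gave a rise for ZC3HAV1 by 0.60 ± 0.16 (edgeR, adjusted p = 0.0387), 1 gene of 6 where 4.28% of all genes rose. PARP10 differed by 0.66 ± 0.25 (edgeR, adjusted p = 0.122), PARP12 by 0.20, DTX3L by 0.01, PARP14 by -0.03 and PARP9 by -0.09. The adjusted p of ZC3HAV1 ranged from 0.000219 with all 20 libraries in 1 fit to 0.142 without HCC366 GFP sg1. It also missed the threshold without HCC366 GFP sg2 or ADAR sg1, NCI-H196 GFP sg2, ADAR sg1 or ADAR sg2, and NCI-H1650 GFP sg2 or ADAR sg2. Without both libraries that stood apart, NCI-H196 GFP sg2 and HCC366 ADAR sg2, the difference was 0.46 ± 0.11 (edgeR, adjusted p = 0.00559).

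From the fixed lists, 1 other PARP family gene of 11 rose across the dependent lines, TIPARP, a mono-ADP-ribosyltransferase induced by the aryl hydrocarbon receptor, by 1.10 ± 0.18, as did 1 of 6 ZAP partners, the endoribonuclease KHNYN, by 0.72 ± 0.18. Neither the 6 genes that remove ADP-ribose nor the 3 Deltex genes tested passed there in edgeR, with 1 gene of each list at an unadjusted p under 0.05. In NCI-H1650, TIPARP (1.05 ± 0.13) and PARP8 (1.77 ± 0.51) rose and PARP1, the main nuclear polymerase, fell (-0.38 ± 0.11) among 11 other PARP genes. In NCI-H196, 4 of 6 ZAP partners passed in edgeR, among them KHNYN (0.61 ± 0.10) and N4BP1 (0.45 ± 0.13), as did STAT2 (0.56 ± 0.11). In that fit 10.3% of all genes were higher past the threshold, whereas 11 of 14094 genes passed with DESeq2. Among control levels, STAT2 was higher in the dependent lines than in A549 by 1.56 ± 0.12. Of 11 other PARP genes, 4 were higher, such as TIPARP (1.55 ± 0.12), and 4 lower, such as PARP4 (-0.60 ± 0.10). Of all 15964 genes tested, 5204 were higher and 5858 lower, so this split was near the background. EXOSC5, a subunit of the RNA exosome with which ZAP works, was lower in the dependent lines by -1.92 ± 0.13. In HCC366 alone and in A549 with vehicle, 0 genes of these lists passed in edgeR, with 2 at an unadjusted p under 0.05 in each.

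Over the 10 condition means, DTX3L was the gene whose pattern was most like PARP9 among 19522 genes (Pearson r = 0.991), and PARP14 the gene most like DTX3L (r = 0.995). IFIT5, TRIM22 and MOV10, interferon-stimulated genes all, were among the 3 nearest of this group. PARP10 was most like HERC6 (r = 0.995), then IFIT3 and HERC5, and PARP12 most like OAS2 (r = 0.976), then ISG15 and TRANK1. ZC3HAV1 was closest to L3MBTL2 (r = 0.981), DLL1 and MAPK8IP2, and correlated with the other 5 members at only 0.23 to 0.71, where these correlated with each other at 0.81 to 0.99. The points share lines and treatments, so these are descriptions.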

How the data were processed

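RNA was depleted of ribosomal RNA and made into directional libraries. Per the labels and the study's methods, the authors aligned the reads to hg19 with STAR, counted reads per gene with HTSeq and used DESeq2. They deposited whole-number read counts per Ensembl gene for each library, which are not normalized. The tool versions, annotation release and strand setting of the counting are not given in the sources used here. Rows that name no gene were left out of library sizes: 6.62% to 23.3% of a library's records fell in no gene, 1.09% to 6.04% were ambiguous and 22.5% to 85.6% were not unique. Symbols were found for 55727 of 58233 identifiers, holding 97.41% of counts.

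Genes were filtered with filterByExpr by condition, scaled with TMM and tested with the quasi-likelihood test of edgeR 4.0.16 (R 4.3.3, limma 3.58.1), with Benjamini-Hochberg adjustment over all genes tested and a threshold of 0.05. Fits used 4 libraries per dependent line, 12 for the 3 lines together, 8 for A549 and 8 for control levels. Fold changes used a prior count of 0.125. Named were the 6 members, ADAR, up to 3 genes per fixed list with the smallest p among those passing, and the 3 genes most correlated with each member. The members and the lists were chosen with earlier results of these data known. The steps were tested on simulated data. Alternatives were DESeq2 1.42.0 and its size factors, no filter, the guide number as a block, all 20 libraries in 1 fit and leaving out each library. A crossed block and a fit without both libraries that stood apart were chosen after seeing the data. Guide numbers were not used as pairs, since they only name guides. No explanation was tested.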

Additional observations from a re-analysis of the deposited data

Results flagged for a closer look

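The order of the knockout and control libraries for ZC3HAV1 differed between the lines. Both knockout libraries were above both controls in HCC366 and both were below in A549 with vehicle, and the log2 effects differed by 1.28. Both knockout libraries were likewise above both controls in NCI-H196, where the effect differed from that in A549 with vehicle by 0.37. In A549 the effect itself was -0.02 ± 0.10 (SE), with libraries that differed by little. Neither difference between lines was tested. A549 had received vehicle and the other lines were untreated, which cannot be told apart from the line.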

How the results depend on the processing

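The count of members passing was 6 of 6 for IFN-β in control A549 and for control levels, and 0 of 6 for knockout in A549 with vehicle, under every alternative run. For IFN-β that count includes PARP10, whose call there is not independent evidence. In HCC366 the count of 0 became 1 with DESeq2, 1 without a filter, 1 with the crossed numbers as replicate block and 2 with all 20 libraries in 1 fit, and lay between 0 and 5 with 1 library left out. In NCI-H1650 it was 1 without a filter and 0 to 1 with 1 library left out. In NCI-H196 the count of 6 became 0 with DESeq2, 0 with the guide number as replicate block and 0 with all 20 libraries in 1 fit, and lay between 0 and 6 with 1 library left out. Across the dependent lines the count of 1 became 2 without a filter, 0 with the replicate block and 2 with all 20 libraries, and lay between 0 and 1. Over all genes in HCC366, 362 of 11135 passed with DESeq2 and 903 of 29655 without a filter. With the crossed block 960 of 11135 passed, and 3701 of 19523 with all 20 libraries. In NCI-H1650, 1027 of 33368 passed without a filter. In NCI-H196, 11 of 14094 passed with DESeq2, 115 with the block and 98 of 19523 with all 20 libraries. Across the lines, 1829 of 39217 passed without a filter, 362 of 16538 with the block and 3148 of 19523 with all 20 libraries. The causes were not tested. The median IFN-β change in knockout A549, 4.12, was 4.16 without a filter, 4.06 with all 20 libraries and 4.02 to 4.24 with 1 library left out. The median knockout effect under IFN-β ran from -0.037 to 0.13 and the median interaction from -0.23 to 0.0015.

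Across the dependent lines the direction turned for DTX3L without a filter (-0.027), for PARP14 with the replicate block (0.016), with all 20 libraries (0.042) and without both libraries that stood apart (0.20), and for PARP9 without those libraries (0.087). With 1 library left out, values spanned 0 in HCC366 for DTX3L (-0.97 to 0.29), PARP10 (-0.27 to 1.73), PARP12 (-0.28 to 0.88), PARP14 (-1.08 to 0.0024) and PARP9 (-1.15 to 0.18). In NCI-H1650 they did so for DTX3L (-0.045 to 0.33), PARP9 (-0.19 to 0.30) and ZC3HAV1 (-0.0065 to 0.43). In NCI-H196 they did so for DTX3L (-0.065 to 0.56), PARP10 (-0.39 to 0.84), PARP12 (-0.40 to 0.37), PARP14 (-0.41 to 0.98) and PARP9 (-0.42 to 0.76). Across the lines they did so for DTX3L (-0.13 to 0.25), PARP14 (-0.23 to 0.21) and PARP9 (-0.31 to 0.20). In A549 they did so for PARP12 (-0.022 to 0.15) and PARP14 (-0.052 to 0.31) with vehicle, for DTX3L (-0.014 to 0.18) and ZC3HAV1 (-0.061 to 0.11) with IFN-β, and in the interaction for DTX3L (-0.18 to 0.013), PARP9 (-0.34 to 0.017) and ZC3HAV1 (-0.043 to 0.13).

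Samples with the same guide number did not deviate together (r = -0.253 for HCC366, -0.0209 for NCI-H196, -0.0163 for NCI-H1650 and between -0.0784 and 0.0368 for A549). Over all genes, the number called in HCC366 was 139, 362 with DESeq2, 903 without a filter, 300 with the replicate block, 960 with it crossed and 3701 with all 20 libraries. In NCI-H1650 it was 1250, 419 with DESeq2 and 159 with all 20 libraries, and in NCI-H196 it was 2513, 11 with DESeq2, 1552 without a filter, 115 with the replicate block and 98 with all 20 libraries. Across the lines it was 876, 1829 without a filter, 362 with the replicate block and 3148 with all 20 libraries. In A549 with vehicle it was 19, 11 with DESeq2, 30 without a filter and 5 with all 20 libraries, for IFN-β in control cells 880 and 531 with all 20 libraries, and for control levels 11062 and 6092 with DESeq2. Leaving out 1 library also moved these numbers. In HCC366 it was 37 without GFP sg1, 9 without GFP sg2, 6408 without ADAR sg1 and 1058 without ADAR sg2, and in NCI-H196 41 without GFP sg1, 527 without ADAR sg1 and 103 without ADAR sg2. In NCI-H1650 it was 542 without GFP sg1 and 575 without GFP sg2. Across the lines it ran from 328 without HCC366 GFP sg1 to 1907 without HCC366 ADAR sg2, in A549 with vehicle from 3 without GFP vehicle sg2 to 22 without GFP IFN-β sg1, and it fell to 517 for IFN-β without GFP vehicle sg2 and to 6143 for control levels without NCI-H196 GFP sg1. With 10 PARP9 reads and 14 ZC3HAV1 reads, the NCI-H196 GFP sg2 library limits what its line can show, as do the 17 vehicle reads of PARP10 in control A549. Leaving out NCI-H196 GFP sg1 moved the median control-level difference of all genes from A549 to -0.54.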
